A study of Mus musculus with 19 samples.

Results

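The mice compared here had all been given MK-801, and they differed in whether they had also received c-MSST. MK-801 (0.2 mg/kg) was injected into the peritoneum every day for 2 weeks, and the labels call these mice SCZ. In the SCZ+c-MSST group, superparamagnetic iron oxide nanoparticles (SPIO, the drug Ferumoxytol) were placed once in the left prelimbic cortex by stereotactic surgery, and the awake mice were then left to move freely in a pulsed magnetic field. The left prelimbic cortex was taken on day 3 after surgery, and total RNA was sequenced as 4 SCZ+c-MSST libraries (replicates 2, 3, 4 and 5) and 4 SCZ libraries (replicates 1, 2, 3 and 5), which are 8 of the 19 libraries of the study. The other 11 libraries came from mice injected with saline, 5 with c-MSST (Control+c-MSST) and 6 without (Control), and are used here for values set beside the main comparison. The labels do not say whether mice without c-MSST had surgery, and no group received only the nanoparticles or only the field, so surgery, nanoparticles and field cannot be told apart. Strain, sex, age and batch are not in the labels, and nothing beyond the group sizes says that each library is 1 mouse, so the spread between libraries may be partly technical.

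MK-801, also called dizocilpine, sits in the open channel of the NMDA receptor and blocks it, and repeated doses in mice are used to model features of schizophrenia. The prelimbic cortex is a medial prefrontal area whose pyramidal neurons are held in check by local interneurons acting through GABA-A receptors, chloride channels assembled from several subunit families. When neurons or other cells are stimulated, a first wave of genes is transcribed within minutes without new protein synthesis. These immediate early genes encode transcription factors such as Fos and the Nr4a family, together with feedback regulators such as the Dusp phosphatases that switch the MAP kinases off again.

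The genes that stood furthest apart included many inducible ones, higher in SCZ+c-MSST than in SCZ. Dusp1, Ccn1, Btg2, Maff, Klf2 and Klf4 were each higher in every SCZ+c-MSST library than in any SCZ library. Cops2, Id3 and Sox18 were lower in every SCZ+c-MSST library than in any SCZ library. Of all tested genes, 4.5% were higher in this way and 3.78% lower. Most of the genes named here were picked for a small p, so their lack of overlap, here and below, is no separate support. No gene passed the threshold of an adjusted p under 0.05 in edgeR's quasi-likelihood test, so the differences below are given as values and not as calls. Levels are in CPM, counts scaled to the library's normalized total, unless stated otherwise, and a log2 fold change is SCZ+c-MSST minus SCZ with its standard error (SE).

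The promoters of 2 of these genes, Dusp1 and Maff, are shown because their log2 fold changes were among the largest of the inducible genes and because both hold a full cAMP response element, the binding sequence of the activity-regulated factor CREB. Each sequence is the 250 bases before a RefSeq start site (GRCm38.p6), written 5′ to 3′ on the gene's strand, with the element (TGACGTCA, the same on both strands) in capitals. Dusp1 is read from the minus strand at chr17:26508473-26508722 and Maff from the plus strand at chr15:79347270-79347519.
Dusp1: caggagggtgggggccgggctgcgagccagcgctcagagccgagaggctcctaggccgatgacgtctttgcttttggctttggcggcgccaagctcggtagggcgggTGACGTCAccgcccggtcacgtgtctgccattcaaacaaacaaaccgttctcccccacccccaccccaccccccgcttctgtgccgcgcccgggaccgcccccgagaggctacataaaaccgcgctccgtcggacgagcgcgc
Maff: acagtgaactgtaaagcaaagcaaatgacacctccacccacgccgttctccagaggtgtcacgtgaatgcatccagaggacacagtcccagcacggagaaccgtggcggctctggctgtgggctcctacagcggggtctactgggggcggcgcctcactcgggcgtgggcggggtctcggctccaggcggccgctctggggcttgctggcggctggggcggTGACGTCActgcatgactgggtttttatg
The element begins 143 bases before the start site in Dusp1 and 29 bases before it in Maff. Of 39 listed immediate early and activity-induced genes, 30 had a promoter in the RefSeq table, and 5 of them (Dusp1, Maff, Pcsk1, Plk2 and Scg2) held the element in a window from 250 bases before to 50 after a start site. The CArG box, the binding sequence of serum response factor (CC, 6 bases of A or T, GG; both strands), was found in 2 of the 30, Dusp5 and Egr2. Over all 27025 genes of the table, 549 held the cAMP response element and 488 the CArG box in at least 1 window. Counted by window, since a gene can have several start sites, each motif was found in 5 of the 44 windows of listed genes (11.4%), against 1.79% and 1.63% of all 32851 windows. Apart from that of Dusp5, the windows with a CArG box were overlapping or neighbouring windows of Egr2. The share by window thus counts the Egr2 promoter more than once. The genes with the element did not differ alike: Plk2 and Scg2 had log2 fold changes of 0.09 and -0.05, against 0.44 for Pcsk1. A match describes the letters only and is not evidence of binding.

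Dusp1, a phosphatase that inactivates MAP kinases, stood at 32.7, 36.9, 41.9 and 53.1 CPM in SCZ+c-MSST replicates 2, 3, 4 and 5. It stood at 13.8, 15.6, 16.0 and 18.2 CPM in SCZ replicates 1, 2, 3 and 5. The lowest treated library was thus well above the highest untreated one. The log2 fold change was 1.37 (SE 0.21), with the smallest adjusted p of any gene (0.0914, edgeR's quasi-likelihood test with Benjamini-Hochberg adjustment over 16417 genes). The means of saline mice lay between these groups, at 26.4 ± 5.84 CPM in Control (SD, n = 6) and 31.4 ± 8.87 CPM in Control+c-MSST (SD, n = 5). Their libraries ran from 20.6 to 36.8 CPM in Control and from 20.6 to 42.6 CPM in Control+c-MSST, which overlaps SCZ+c-MSST.

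Ccn1, a secreted matrix protein induced by growth factors and stretch, stood at 6.84, 12.1, 15.9 and 13 CPM in SCZ+c-MSST against 2.56, 2.44, 2.31 and 3.40 CPM in SCZ. The groups did not overlap, and the treated libraries spread more than the untreated ones. Its log2 fold change was 2.16 (SE 0.40, edgeR adjusted p = 0.124). Btg2, an inducible inhibitor of cell division, stood at 25.3, 32.4, 41.7 and 39.2 CPM against 9.50, 12.3, 12.9 and 15.6 CPM. This was again a gap between all 4 treated and all 4 untreated libraries, with a log2 fold change of 1.46 (SE 0.28, edgeR adjusted p = 0.127).

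Among the immediate early transcription factors, Maff, a small bZIP protein, had the largest difference. Its levels were 8.14, 8.34, 6.47 and 7.74 CPM in SCZ+c-MSST and 1.47, 2.25, 1.26 and 2.06 CPM in SCZ. The 4 treated libraries lay close together and far above the others (log2 fold change 2.12, SE 0.45, edgeR adjusted p = 0.197). Klf4, a zinc finger factor of the Krüppel-like family, stood at 17.5, 13, 16.0 and 17.4 CPM against 6.56, 4.92, 6.04 and 5.19 CPM. Its relative Klf2, a factor of endothelial and immune cells, stood at 17.2, 13.2, 15 and 13.8 CPM against 6.01, 5.76, 5.33 and 5.31 CPM. Neither gene overlapped between groups, and their log2 fold changes were 1.49 (SE 0.37) and 1.40 (SE 0.30). Nr4a1, an orphan nuclear receptor, stood at 58.6, 55.8, 79.0 and 72.4 CPM against 28, 34.2, 35.6 and 38.8 CPM (log2 fold change 0.96, SE 0.22, edgeR adjusted p = 0.240). Control libraries held 64.1 ± 15.8 CPM of Nr4a1 (SD, n = 6), a level within the range of SCZ+c-MSST.

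**Figure D1:**
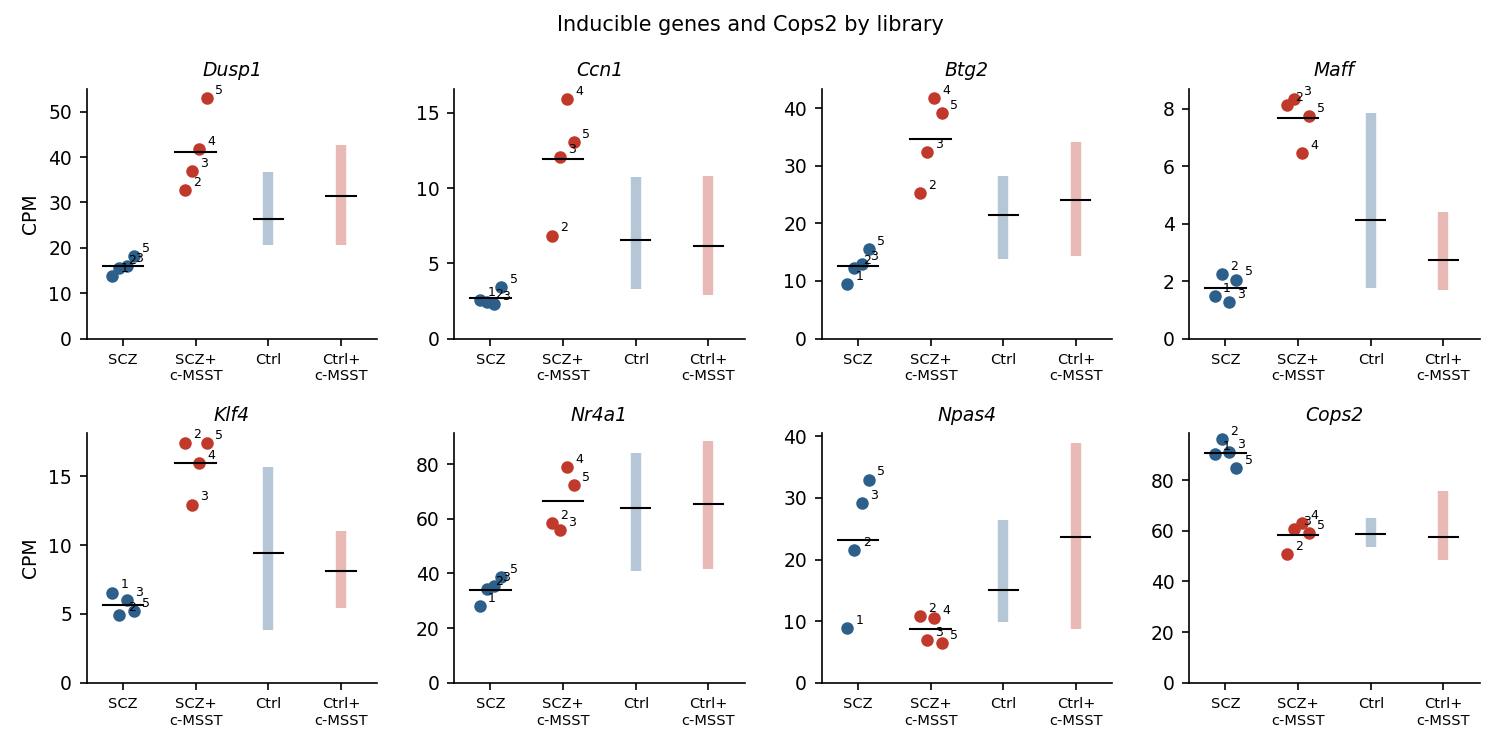
CPM (y axis, from 0) of 8 genes in each SCZ and SCZ+c-MSST library, with replicate numbers beside the points and black lines at the means. Pale bars give the range and black lines the mean of the 6 Control (Ctrl) and 5 Control+c-MSST libraries. The points of both groups are apart in Dusp1, Ccn1, Btg2, Maff, Klf4, Nr4a1 and Cops2, while in Npas4 SCZ replicate 1 (8.82 CPM) lies within the SCZ+c-MSST range.

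The list of immediate early transcription factors had 19 tested members, of which 17 were higher in SCZ+c-MSST, with a median log2 fold change of 0.46. Over all 16417 tested genes 47.4% were higher and the median was -0.01. At an unadjusted p under 0.05 by edgeR, 8 members were higher, where 3.86% of all tested genes were, and 1 was lower, where 3.7% were. The groups did not overlap for 7 higher members, against 4.5% of all tested genes. The remaining higher members at that p were Atf3, a stress-induced factor (1.71, SE 0.70), Ier2 (0.97, SE 0.25), Fos (0.89, SE 0.37), Junb (0.78, SE 0.23) and Jun (0.42, SE 0.20), and Fos, Junb and Jun are parts of the AP-1 complex. Without SCZ replicate 5 the number at an unadjusted p under 0.05 was 5, and the median over single libraries left out was 0.40 to 0.56.

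Npas4, a factor induced in neurons by calcium entry, went the other way. It stood at 10.9, 6.95, 10.5 and 6.42 CPM in SCZ+c-MSST and at 8.82, 21.5, 29.2 and 33.0 CPM in SCZ. SCZ replicate 1 lay inside the treated range and the other 3 SCZ libraries above it. The log2 fold change was -1.42 (SE 0.44, edgeR adjusted p = 0.432), and without SCZ replicate 1 it was -1.69. Arc, an activity-regulated synaptic protein, had overlapping levels, at 80.5 to 96.5 CPM against 60.5 to 82.6 CPM (log2 fold change 0.33, SE 0.27). The difference in Homer1, a postsynaptic scaffold with an activity-induced short form, was 0.22 (SE 0.12), and in Fosl2 0.61 (SE 0.31).

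Of 20 activity-induced effectors, the genes that act downstream or as feedback regulators, 17 were higher, with a median log2 fold change of 0.16. At an unadjusted p under 0.05, 5 were higher and 1 lower, against the same 3.86% and 3.7% of all genes. Beside Dusp1 these were Per1, Sik1, Dusp6 and Pcsk1 on the higher side. Per1, a clock gene that is also induced by activity and by glucocorticoids, stood at 139, 146, 167 and 153 CPM against 115, 110, 110 and 106 CPM, which did not overlap (log2 fold change 0.45, SE 0.10, edgeR adjusted p = 0.237). Sik1, a kinase that restrains CREB signalling, stood at 40.9 to 54.9 CPM against 22.7 to 30.5 CPM (0.83, SE 0.22). Dusp6, a phosphatase of ERK kinases, had a log2 fold change of 0.45 (SE 0.12). The lower gene was Rgs2, a regulator of G protein signalling, at 34.3, 38.3, 38.1 and 32.1 CPM against 38.3, 47.7, 48.9 and 44.5 CPM (-0.33, SE 0.14). Per1 was the only one of 16 clock genes at an unadjusted p under 0.05.

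Genes that glucocorticoids induce overlap with the inducible set. Of 17 listed, 13 were higher, 6 of them at an unadjusted p under 0.05 (3.86% of all tested genes) and none lower at that p, with a median log2 fold change of 0.12, which was 0.33 without SCZ replicate 1. Nfkbia, the inhibitor of NF-kB, stood at 22.1, 22.0, 26.5 and 29.6 CPM in the treated libraries against 16.0, 13.3, 12.5 and 13.9 CPM (log2 fold change 0.85, SE 0.20, edgeR adjusted p = 0.237). Ddit4, an inhibitor of mTORC1, stood at 35.3 to 37.3 CPM against 18.9 to 23.6 CPM (0.83, SE 0.22). Neither gene overlapped between groups. Sgk1, a kinase induced by glucocorticoids, stood at 131, 131, 135 and 124 CPM against 116, 62.4, 66.5 and 66.7 CPM, so that SCZ replicate 1 lay near the treated libraries (0.74, SE 0.22; 1.00 without SCZ replicate 1). Errfi1 (0.39, SE 0.15) and Klf9 (0.24, SE 0.08) were the other members beside Per1. Tsc22d3, Fkbp5 and Zbtb16 had log2 fold changes of -0.58, 0.11 and 0.18, and none had an unadjusted p under 0.05.

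Further genes with the smallest p on the higher side had less shared function. Map3k6, a stress kinase, stood at 6.67, 6.62, 6.96 and 8.49 CPM against 4.47, 1.89, 2.96 and 3.45 CPM (log2 fold change 1.17, SE 0.22, edgeR adjusted p = 0.124). Dennd3, which activates Rab12, stood at 16.4 to 21.1 CPM against 9.99 to 12.2 CPM (0.75, SE 0.14). Foxf1, a forkhead factor of mesenchymal and endothelial cells, stood at 1.24, 2.80, 2.81 and 3.78 CPM against 0.165, 0.362, 0.394 and 0.720 CPM (2.68, SE 0.55). Fut2, a fucosyltransferase, stood at 4.75 to 6.01 CPM against 2.52 to 3.08 CPM (0.91, SE 0.21), while Loxhd1 (1.42, SE 0.30) and Polr3e, a subunit of RNA polymerase III (0.30, SE 0.07), completed the leading genes. In each of these 6 genes every treated library was above every untreated one.

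On the lower side, Cops2, a subunit of the COP9 signalosome that removes NEDD8 from cullin ubiquitin ligases, stood at 50.9, 60.6, 63.0 and 59.2 CPM in SCZ+c-MSST. It stood at 90.3, 96.2, 91.0 and 84.8 CPM in SCZ. All treated libraries were below all untreated ones, and Control (58.9 ± 4.74 CPM, SD, n = 6) and Control+c-MSST (57.7 ± 10.6 CPM, SD, n = 5) lay at the treated level. The log2 fold change was -0.63 (SE 0.11, edgeR adjusted p = 0.0973), and over every single library left out it was -0.67 to -0.57. Cops2 lies on the minus strand of chromosome 2 at 125830304 to 125859139 (mm10, GENCODE).

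Sox18, an endothelial transcription factor, stood at 1.31, 2.06, 1.00 and 1.29 CPM against 3.42, 3.35, 2.75 and 5.65 CPM (log2 fold change -1.42, SE 0.31, edgeR adjusted p = 0.206). Id3, an inhibitor of bHLH factors that responds to BMP signals, stood at 4.26, 4.12, 5.90 and 4.68 CPM against 6.39, 8.86, 8.83 and 9.98 CPM (-0.85, SE 0.16, edgeR adjusted p = 0.124). Neither gene overlapped between groups. Mmrn2, an endothelial matrix protein (-0.56, SE 0.13), Fgd5, an endothelial exchange factor for Cdc42 (-0.48, SE 0.10), and Amotl2, a junction protein (-0.43, SE 0.10), were also lower in every treated library. Pdgfa, a growth factor for oligodendrocyte precursors and mural cells, stood at 20.1, 21.4, 14.7 and 14.1 CPM against 24.5, 26.7, 25.5 and 22.5 CPM (-0.50, SE 0.11). The other leading lower genes were the zinc finger genes Zfp658 (-0.50, SE 0.09), Zscan29 (-0.39, SE 0.08) and Zbtb41 (-0.27, SE 0.06), the mitochondrial ribosomal gene Mrpl52 (-0.55, SE 0.12) and the locus LOC102640673 (-0.67, SE 0.13).

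The listed vascular markers had members on both sides. Of 15 endothelial markers 4 were higher (median log2 fold change -0.11), with 3 on each side at an unadjusted p under 0.05. Of all tested genes 3.86% were higher and 3.7% lower at that p. Ly6c1 stood at 13.8 to 16.6 CPM against 18.0 to 22.9 CPM (-0.45, SE 0.14), while the glucose transporter Slc2a1 (0.32, SE 0.10) and the junction protein Esam (0.27, SE 0.10) were on the higher side. Of 12 pericyte and smooth muscle markers 2 were higher and 10 lower, with 0 higher and 3 lower at that p. Among these 3, Acta2, smooth muscle actin, stood at 5.82, 8.18, 8.10 and 7.74 CPM against 12.6, 9.36, 11.2 and 11.2 CPM (-0.57, SE 0.20), and Myh11 had a log2 fold change of -0.37 (SE 0.16). In bulk tissue, fewer cells of a type and less RNA per cell cannot be told apart.

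**Figure D2:**
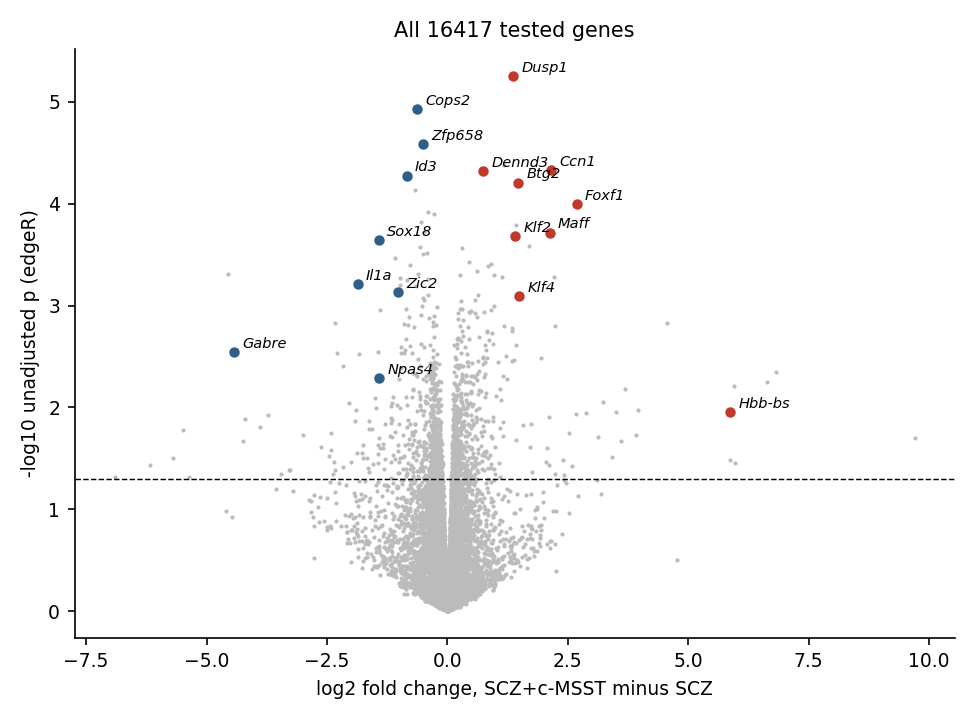
Each point is 1 of 16417 tested genes, with the log2 fold change (SCZ+c-MSST minus SCZ) on the x axis and -log10 of the unadjusted edgeR p on the y axis; genes above the dashed line had an unadjusted p under 0.05. Dusp1 and Cops2 stand highest, Gabre lies far left at -4.42, and Hbb-bs far right at 5.87.

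Across all genes edgeR's quasi-likelihood test called 0 at an adjusted p under 0.05. At an unadjusted p under 0.05, 634 were higher and 607 lower (3.86% and 3.7% of those tested), and 821 in all would be reached by chance if no gene differed. Other tools made calls on the same counts: DESeq2 called 62 genes (34 higher, 28 lower), limma voom with quality weights 46 (26 and 20), and edgeR fitted to the 8 libraries alone 31 (23 and 8). All 3 of these fits called 14 genes. Of these, 11 were higher (Btg2, Ccn1, Dennd3, Dusp1, Fut2, Klf2, Klf4, Maff, Mef2d, Nfkbia and Rnf125) and 3 lower (Cops2, Dlx1 and Hes5). Without SCZ+c-MSST replicate 2 edgeR called Dusp1 and LOC102640673, without SCZ replicate 3 it called Ankrd31, and without any other of the 8 libraries it called 0. On deposited FPKM values limma called 2 genes, Dusp1 and Cops2, with pseudocounts of 1 and 0.1. There, 259 genes were higher and 808 lower at an unadjusted p under 0.05 with a pseudocount of 1, and 32.1% of genes were higher where the counts gave 47.4%.

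Whether these differences were peculiar to mice given MK-801 was asked by setting them beside c-MSST in saline mice, whose libraries are none of the 8. Of the 12 leading higher genes, 7 were also higher in Control+c-MSST than in Control, with log2 fold changes of -0.59 to 0.25 and a median of 0.02, against a median of 1.39 in MK-801 mice. Of the 12 leading lower genes, 6 were lower in saline mice (-0.31 to 0.31, median 0.02), against a median of -0.53. Maff, at 2.12 in MK-801 mice, was at -0.59 (SE 0.38) in saline mice. Id3, at -0.85, was at 0.31 (SE 0.14), and Mmrn2, at -0.56, was at -0.31 (SE 0.11). The 24 genes were picked for their p in MK-801 mice, so a smaller value in other libraries is what picking alone would also give. The test of the difference itself, the interaction term, called 0 of 16417 genes by edgeR's quasi-likelihood test (smallest adjusted p 0.242, for Hes5), with 7.29% at an unadjusted p under 0.05. DESeq2 called 40 genes for this term, 27 with a higher effect in MK-801 mice.

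**Figure D3:**
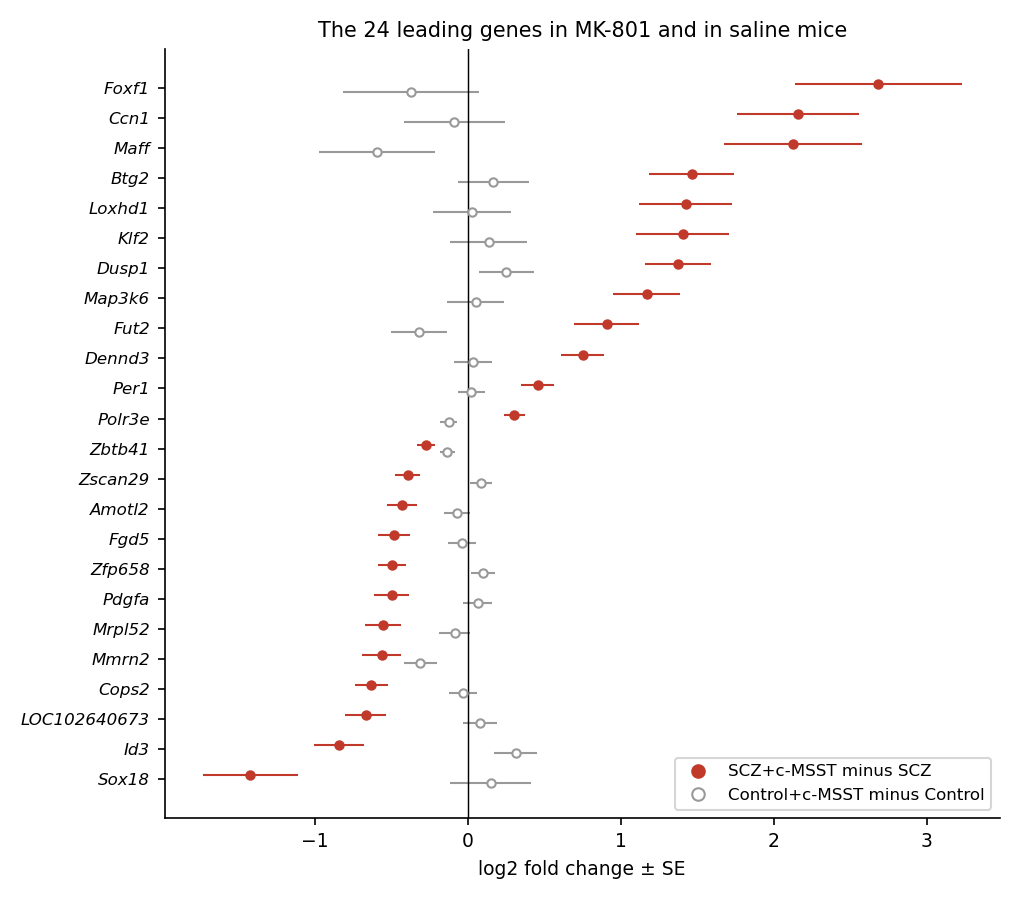
Log2 fold change with its SE (x axis) of the 24 leading genes (y axis), filled for SCZ+c-MSST minus SCZ and open for Control+c-MSST minus Control. The filled points run from 2.68 (Foxf1) to -1.42 (Sox18), while the open ones lie between -0.59 and 0.31.

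Read the other way, 54 genes passed edgeR's threshold in Control+c-MSST against Control, 0.231% of tested genes higher and 0.0975% lower. Of the 54, 48 differed in the same direction in MK-801 mice (88.9%, against 57.7% of all tested genes). The median log2 fold change, signed by the direction in saline mice, was 0.35 there and 0.08 in MK-801 mice. These 54 were picked for their p in saline mice, so picking alone would also give a smaller value in other libraries. Of the 48, 6 had an unadjusted p under 0.05 in MK-801 mice by edgeR, namely Gatm, Smoc2, Il33, Ankub1, Tmem132a and Fam171a2. Of all tested genes 3.86% were higher and 3.7% lower at that p, so a few such genes would be found in any 54. Levels of Il33, an alarmin cytokine stored in nuclei of glia, were 22.6, 22.8, 20.3 and 25.1 CPM with c-MSST and 28.5, 26.8, 26.4 and 31.1 CPM without (log2 fold change -0.31, SE 0.10). Gatm, the first enzyme of creatine synthesis, stood at 59.7 to 66.2 CPM against 72.9 to 82.9 CPM (-0.30, SE 0.09). Both were lower in every treated library, as were 3.78% of all tested genes. Leaving out Control+c-MSST replicate 6 ended all 54 calls.

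The series title names Gabre, whose product, the epsilon subunit of GABA-A receptors, renders receptors insensitive to benzodiazepines. The gene sits on the minus strand of chromosome X (72255999 to 72274803, mm10). It was barely expressed: 0, 5, 0 and 4 counts in SCZ+c-MSST and 19, 16, 80 and 108 counts in SCZ. The SCZ counts came mostly from replicates 3 and 5, at 1.09 and 1.25 CPM, while replicates 1 and 2 held 0.261 and 0.241 CPM, close to Control (0.150 ± 0.107 CPM, SD, n = 6). Every treated library was below every untreated one (log2 fold change -4.42, SE 1.29, edgeR adjusted p = 0.401), as for 3.78% of all tested genes. An exact permutation test over the 8 libraries, two-sided, gave p = 0.0286, the smallest it can give. Any gene without overlap between the groups gets this p, so it adds nothing to the lack of overlap. With a septal marker score as a covariate the log2 fold change was -3.49, and with septal, striatal and choroid plexus scores it was -2.98. The unadjusted edgeR p was 0.0029 without a score, 0.020 with the septal score and 0.066 with the 3 scores. In saline mice the log2 fold change was -0.15 (SE 0.97).

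The other subunits were tested in the same fit, 16 of 19 in all. Of the 16, 8 were higher and 8 lower. At an unadjusted p under 0.05, 0 were higher (3.86% of all tested genes were) and 3 were lower (3.7% were). These 3 were Gabre, Gabrq and Gabrg1. Gabrq, the theta subunit, stood at 1.31, 1.22, 2.33 and 1.79 CPM in SCZ+c-MSST and 2.79, 2.7, 4.71 and 8.39 CPM in SCZ, with no overlap (log2 fold change -1.49, SE 0.52, edgeR adjusted p = 0.513). Gabrg1, the gamma-1 subunit, stood at 22.8, 18.2, 29.4 and 23.0 CPM against 24.4, 31.0, 34.9 and 37.8 CPM, where replicate 4 of the treated group lay above replicate 1 of SCZ (-0.46, SE 0.17). Without SCZ replicate 5, 1 subunit was lower at that p. Gabrg3 was higher in every treated library (0.18, SE 0.18), Gabrr1 had 0.0542 to 0.224 CPM against 0.151 to 0.558 CPM, and the remaining 11 subunits, which include the main alpha, beta, gamma-2 and delta subunits of cortical receptors, had absolute log2 fold changes of at most 0.09. None of those 11 was apart between the groups. The filter on low counts left out Gabra6, Gabrp and Gabrr3. Around the synapse, Slc6a11, the glial GABA transporter GAT-3, stood at 141, 130, 144 and 134 CPM against 148, 155, 157 and 228 CPM (-0.33, SE 0.11; -0.16 without SCZ replicate 5), and Gabbr2, a subunit of the GABA-B receptor, at 503 to 602 CPM against 424 to 513 CPM (0.22, SE 0.11).

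Markers of the septum and basal forebrain, which border the medial prefrontal cortex, moved with these genes. All 13 tested members were lower in SCZ+c-MSST, where 52.6% of all tested genes were, with a median log2 fold change of -0.97. At an unadjusted p under 0.05, 6 were lower, where 3.7% of all tested genes were. In saline mice all 13 were lower with c-MSST as well (median -0.66). Their summed level was 73.0 to 99.0 CPM in SCZ+c-MSST and 84.2 to 187.3 CPM in SCZ. Zic1, a transcription factor of the septum, stood at 13.3, 10.9, 16.9 and 12.1 CPM against 13.5 CPM in SCZ replicate 1 and 42.5, 41.4 and 51.6 CPM in SCZ replicates 2, 3 and 5. SCZ replicate 1 was thus at the treated level and the other 3 well above it. Zic2 showed the same split, at 7.43 to 8.14 CPM in the treated libraries, 8.89 CPM in SCZ replicate 1 and 17.6 to 19.2 CPM in the other SCZ libraries (-1.04, SE 0.25). The septal score of the whole list was 0.56, 1.05, 1.19 and 1.64 in SCZ replicates 1, 2, 3 and 5. Gabre was low in SCZ replicates 1 and 2 and higher in replicates 3 and 5, whereas Zic1 was high in replicate 2 as well. The part of tissue outside the prelimbic cortex in the Gabre, Gabrq and Gabrg1 values was not tested.

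**Figure D4:**
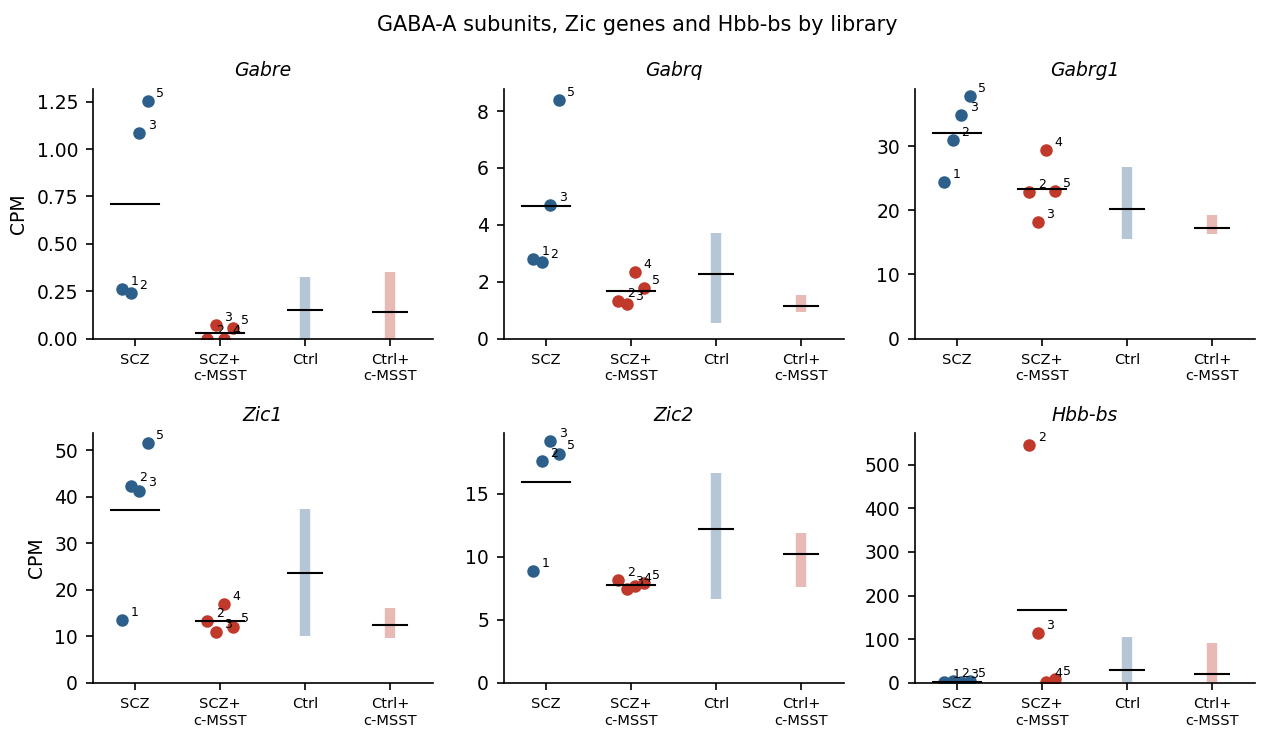
CPM (y axis, from 0) of Gabre, Gabrq, Gabrg1, Zic1, Zic2 and Hbb-bs in each SCZ and SCZ+c-MSST library, with replicate numbers and group means; pale bars give the range of the Control (Ctrl) and Control+c-MSST libraries. Gabre is highest in SCZ replicates 3 and 5, Zic1 in SCZ replicates 2, 3 and 5, and Hbb-bs in SCZ+c-MSST replicate 2.

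The libraries as a whole showed the same split. On the first principal component of the 1000 most variable genes, which held 19.1% of the variance of the 8 libraries, SCZ replicates 2, 3 and 5 lay between -24.4 and -20.8, SCZ replicate 1 at 3.22, and the SCZ+c-MSST libraries between 6.73 and 29.9. Total counts were 66828543 to 75090222 in SCZ+c-MSST and 65498768 to 82416746 in SCZ (exact permutation p = 0.657, two-sided), so that 3 counts, the limit a count of 0 allows, equalled 0.0349 to 0.0453 CPM. Cortical neuron genes were abundant in all libraries, with Camk2a, the alpha subunit of CaM kinase II, at 3306 to 4365 CPM. Ppp1r1b and Drd2, which mark striatal projection neurons, were present too, at 260 to 550 CPM and 41.2 to 101 CPM over the 8 libraries, and 11 of 12 striatal markers were lower in SCZ+c-MSST with none at an unadjusted p under 0.05. Choroid plexus and ependymal markers were lower in 14 of 14 (median -0.67), at a summed 20.9 to 27.5 CPM against 31.5 to 43.6 CPM. In saline mice 14 of 14 were also lower with c-MSST (median -2.07), where Control libraries summed to 15.5 to 1795 CPM. Of the 12 striatal markers, 11 were lower there (median -0.18).

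The inducible genes were set against these tissue scores. The septal score was -0.03 to 0.50 in SCZ+c-MSST and 0.56 to 1.64 in SCZ. The choroid plexus score was -1.04 to -0.23 against 0.27 to 0.65. Neither score overlapped between the groups, so no fit with them can separate group from tissue in the 8 libraries. Adjusted values, here and elsewhere, rest on slopes that the saline libraries also set. With the septal, striatal and choroid plexus scores together as covariates, 16 of the 19 genes in the list of immediate early transcription factors were higher. At an unadjusted p under 0.05, 9 of them were, beside 509 of all 16417 tested genes, and the median of the list was 0.70. With the septal score alone it was 0.42. Globin genes differed in some libraries. Hbb-bs, adult beta globin, stood at 545 and 114 CPM in SCZ+c-MSST replicates 2 and 3 and at 2.84 and 8.38 CPM in replicates 4 and 5. In SCZ it stood at 1.75 to 3.98 CPM. Hba-a2, an alpha globin, was 647 CPM in replicate 2 and 74.8 to 177 CPM in the other treated libraries, against 88.9 to 124 CPM in SCZ. The 8 listed Erythrocyte genes had a median of 1.24, which was 0.29 without SCZ+c-MSST replicate 2. Only replicate 2 was thus far above SCZ in both globins, and the amount of blood in the tissue was not tested. Reads of near-identical globin copies may have been split by the counting. With the erythrocyte score as a covariate the median of the Immediate early transcription factors was 0.61, and Dusp1 had its highest value, 1.47.

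Genes of synapses and channels were slightly higher in most members. Of 17 presynaptic genes 15 were higher (median log2 fold change 0.14), of 16 postsynaptic scaffold genes 15 (0.10), of 16 voltage-gated potassium channels 14 (0.12), and of 10 AMPA receptor subunits and auxiliaries 9 (0.14), beside 47.4% of all tested genes. Those higher at an unadjusted p under 0.05 were 4, 3, 2 and 1, where 3.86% of all tested genes were. Syn1, a vesicle protein, stood at 688, 692, 663 and 781 CPM against 630, 608, 591 and 554 CPM (0.24, SE 0.10). Dlgap2, a postsynaptic scaffold, stood at 227, 247, 222 and 255 CPM against 214, 199, 198 and 190 CPM (0.25, SE 0.08). Neither overlapped, and these shifts are small beside those of the inducible genes. Of 16 calcium and sodium channels 12 were higher, 5 of them at an unadjusted p under 0.05, against the same 3.86%. Among these were Scn8a, the sodium channel of the axon initial segment (0.18, SE 0.06), and Cacna1b, the N-type calcium channel (0.12, SE 0.05).

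With single libraries left out, 14 to 16 of the 17 presynaptic genes and 13 to 15 of the 16 potassium channels were higher, while the number at an unadjusted p under 0.05 moved more. Without SCZ replicate 5, or without SCZ+c-MSST replicate 5, 0 presynaptic genes had an unadjusted p under 0.05 (medians 0.09 and 0.10), and the calcium and sodium channels had 1 at that p. With the septal, striatal and choroid plexus scores as covariates, 9 of 17 Presynaptic genes were higher, with a median of 0.01, and 9 of 16 Voltage-gated potassium channels, also with a median of 0.01. For Postsynaptic scaffold genes the count was 12 of 16. Of the NMDA receptor, the target of MK-801, 5 of 7 subunits were higher: the obligatory subunit Grin1 stood at 579 to 651 CPM against 525 to 600 CPM (0.16, SE 0.08) and Grin2a at 670 to 808 CPM against 530 to 677 CPM (0.30, SE 0.14). With the 3 scores the value of Grin1 was -0.0044.

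**Figure D5:**
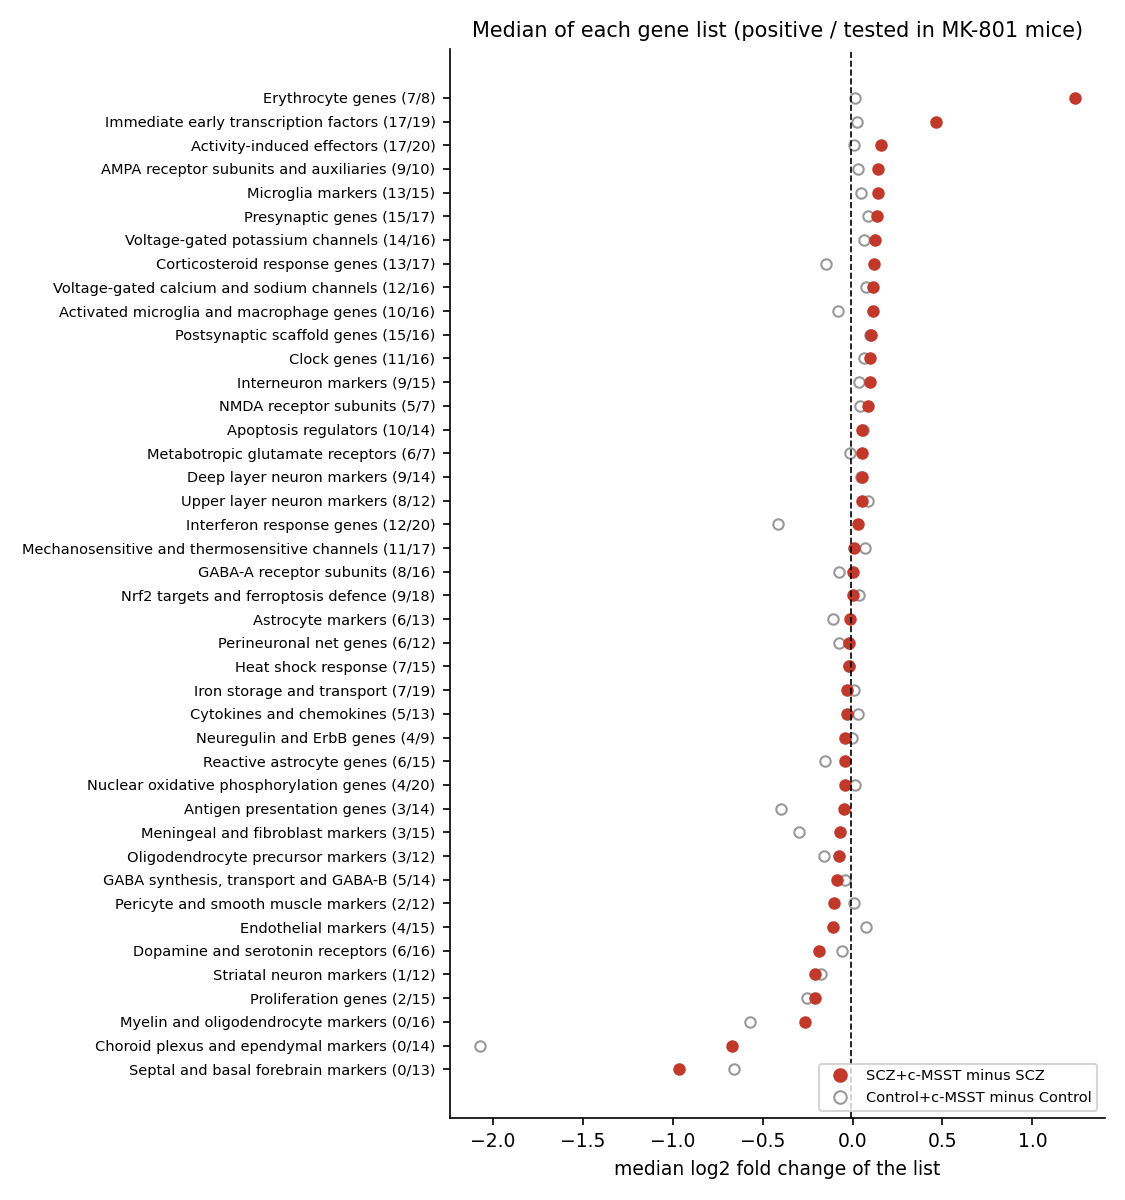
Median log2 fold change (x axis) of each of 42 gene lists (y axis, with the number of members higher in SCZ+c-MSST of those tested), filled for SCZ+c-MSST minus SCZ and open for Control+c-MSST minus Control; the dashed line is the median of all tested genes, -0.01. Of the filled points, erythrocyte genes (1.24) and immediate early transcription factors (0.46) lie furthest right, and septal markers (-0.97) furthest left. The open point of choroid plexus and ependymal markers lies further left, at -2.07.

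All 16 myelin and oligodendrocyte markers were lower, with a median log2 fold change of -0.26. None had an unadjusted p under 0.05 in the model of 19 libraries, and 12 did, all lower, with the 8 libraries alone. In that fit 1041 of 15957 tested genes were lower at that p. Myelin basic protein, Mbp, ran at 1437, 1709, 1264 and 1460 CPM in SCZ+c-MSST and 1875, 1633, 1654 and 1855 CPM in SCZ, so replicate 3 of the treated group lay within the SCZ range (-0.26, SE 0.25). In saline mice the median was -0.57, with 16 of 16 lower as well, and the summed level of the list was 1108 CPM in Control+c-MSST replicate 6 and 2462 to 3377 CPM in the other 4 libraries of that group. Among precursor markers, Bcas1, a gene of newly formed oligodendrocytes, stood at 57.0, 70.3, 51.4 and 60.6 CPM against 174, 72.8, 64.7 and 171 CPM, with SCZ replicates 1 and 5 far above the rest (-1.01, SE 0.44). Gpr17, a receptor of committed precursors, stood at 49.6 to 57.9 CPM against 65.2 to 76.8 CPM (-0.38, SE 0.15). Of 15 microglia markers 13 were higher (median 0.14), such as C1qb, a complement subunit, at 41.8, 38.3, 49.4 and 39.0 CPM against 36.2, 35, 35.3 and 38.1 CPM (0.22, SE 0.12), with none at that p.

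Inflammatory genes showed no common direction. Of 13 tested cytokines and chemokines 5 were higher. Il1a, an alarmin of the interleukin-1 family, stood at 0.418, 0.193, 0.523 and 0.257 CPM against 1.03, 1.36, 1.56 and 1.12 CPM, with no overlap (log2 fold change -1.86, SE 0.45, edgeR adjusted p = 0.255), whereas in saline mice it was 0.97 (SE 0.38). Cxcl10, an interferon-induced chemokine, reached 3.12 CPM in SCZ+c-MSST replicate 4 and stood at 0.0552 to 0.758 CPM in the other treated libraries, against 0.0929 to 0.217 CPM in SCZ. Of 20 interferon response genes 12 were higher, with a median of 0.03, and without SCZ+c-MSST replicate 4, 6 were higher with a median of -0.17. In saline mice 1 was higher and the median was -0.41. Antigen presentation genes had medians of -0.05 and -0.40 in MK-801 and saline mice. Whether these lists differed between the backgrounds was not tested. Of 15 reactive astrocyte genes 6 were higher (median -0.04), and astrocyte markers had a median of -0.01.

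c-MSST places iron oxide particles in tissue under a magnetic field. Lists of iron handling, heat shock and mechanosensitive channel genes had medians near that of all tested genes (-0.01), with single members apart. Of 19 tested genes of iron storage and transport 7 were higher, with a median log2 fold change of -0.03. At an unadjusted p under 0.05, 2 were lower, where 3.7% of all tested genes were. The groups did not overlap for 2 lower members, against 3.78% of all tested genes. Fth1, the ferritin heavy chain, stood at 710, 838, 700 and 777 CPM against 870, 800, 810 and 776 CPM (-0.11, SE 0.11), and the groups overlapped. Tfrc, the transferrin receptor, stood at 85.6 to 110 CPM against 111 to 125 CPM, a narrow gap without overlap (-0.30, SE 0.15). Slc40a1, the iron exporter ferroportin (-0.39, SE 0.18), and Cp, the ferroxidase ceruloplasmin (-0.27, SE 0.12), were the 2 lower genes. Nrf2 targets and ferroptosis genes had 9 of 18 higher with a median of 0.00. Of 15 heat shock genes 7 were higher (median -0.02), and 2 were lower without overlap between the groups. Hspb1, a small heat shock protein, was lower in every treated library (1.39 to 2.02 CPM against 2.35 to 2.82 CPM, -0.48, SE 0.18). Of 17 mechanosensitive and thermosensitive channels 11 were higher with a median of 0.01, and Tmem63c, of a family of osmosensitive channels, was the only one at an unadjusted p under 0.05 (0.17, SE 0.06; 0.17 in saline mice as well).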

How the data were processed

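RNA of the left prelimbic cortex was sequenced in 19 libraries (stranded total RNA kit, per the labels' protocols). The authors' deposited tables were used: estimated counts by gene, and FPKM values, in which the authors had corrected for transcript length and sequencing depth. Build mm10 and the tools StringTie 1.3.5, STAR 2.7.7a, fastp 0.19.5 and Picard 2.18.29 are named in the submitters' processing notes. The annotation and use of strand are not given in the sources used here, so overlapping, antisense and near-identical genes are uncertain. The deposited counts were whole numbers and were used unrounded. Groups were taken from the sample titles.

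Of 20938 genes, 16417 passed edgeR's filterByExpr. One quasi-likelihood model (edgeR 4.0.16, TMM, robust, a coefficient per group, 19 libraries) gave SCZ+c-MSST against SCZ, Control+c-MSST against Control and their difference, adjusted by Benjamini-Hochberg over all tested genes, with a threshold of 0.05. All 19 libraries share 1 estimate of the spread. CPM used TMM-scaled totals. List scores are means of centred log2 CPM (prior count 2). Totals and Gabre were compared by exact permutation tests. The limit that a count of 0 allows (3 counts) covers counting error only.

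Alternatives were DESeq2 1.42.0, limma 3.58.1 (voom with quality weights; log2(FPKM + 1) and log2(FPKM + 0.1), where low genes are shrunk), other normalizations and filters, the 8 libraries alone, a replicate block, tissue scores or 1 surrogate variable (sva 3.50.0) as covariates, and leave-one-out. Erythrocyte and myelin scores as covariates, and leave-one-out in saline mice, were chosen after seeing the data. On FPKM values 11 tested names that had turned into dates were left out.

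The members and the 42 lists were chosen with earlier results of these data known, so lists are described by counts and medians with no test. Named were Gabre and GABA-A subunits, the 12 genes of smallest p in each direction with a mean of at least 1 CPM (names starting Gm, AC or BC with digits, ending in Rik or holding a dot left out), and for each list the 3 most abundant members and the 3 of smallest p, of which the text gives some; 1 gene that this rule names is not reported here. Chosen outside it, with their values already seen, were Ier2, Junb, Jun, Fos, Npas4, Arc, Sik1, Rgs2, Sgk1, Errfi1, Atf3, Gatm, Smoc2, Ankub1, Tmem132a, Fam171a2, Tsc22d3, Fkbp5, Pcsk1, Mef2d, Rnf125, Dlx1, Hes5 and Ankrd31.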

Additional observations from a re-analysis of the deposited data

Results flagged for a closer look

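In groups of 4 libraries, a level stood apart when its gap to the nearest library, as a share of the group's range, passed Dixon's 95% critical value, which chance does in about 1 of 20 groups. Over 220 groups tested, 2 for each of 108 genes and the rest for library totals and detected genes, there were 9 such levels, 3 in SCZ replicate 1 and 3 in SCZ replicate 5, and each is given with the range of the other 3 libraries of its group.

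In SCZ replicate 1, Junb was low at 17.4 CPM (others 25.9 to 27.3 CPM), Sgk1 was high at 116 CPM (62.4 to 66.7 CPM) and Zic2 was low at 8.89 CPM (17.6 to 19.2 CPM). In SCZ replicate 5, Slc6a11 was high at 228 CPM (others 148 to 157 CPM), Tmem63c was low at 88.7 CPM (101 to 104 CPM) and Tbr1, a transcription factor of deep cortical layers, was low at 144 CPM (180 to 187 CPM).

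In the SCZ+c-MSST group, Ier2 was low in replicate 2 at 5.61 CPM (others 8.07 to 8.48 CPM), Tmem63c was low in replicate 4 at 104 CPM (113 to 114 CPM) and Tbr1 was high in replicate 5 at 242 CPM (203 to 209 CPM).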

How the results depend on the processing

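For SCZ+c-MSST against SCZ, edgeR's count of 0 changed genes became 62 with the DESeq2 Wald test, 46 with limma voom and quality weights, 31 with only the 8 libraries, 2 on log2(FPKM + 1), 2 on log2(FPKM + 0.1), and 0 to 2 with 1 library left out. It was 0 under the other normalizations and filters, 1 surrogate variable and every tissue score. For Control+c-MSST against Control, 54 changed genes became 567 with DESeq2 and 0 to 314 with 1 library left out. For the interaction, 0 changed genes became 40 with DESeq2 and 0 to 1 with 1 library left out.

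The labels do not say whether replicate numbers pair the samples. Same-numbered libraries (2, 3 and 5) deviated from their group means with correlations of -0.03 to -0.02, against -0.03 to 0.06 for other pairs. With 3 such pairs, a shared day or cage cannot be judged. With the replicate number as a block the counts were 0 for SCZ+c-MSST against SCZ, 0 for Control+c-MSST against Control (where 54 had passed) and 0 for the interaction, and Gabre had a log2 fold change of -4.29.

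Gabre passed no fit (-0.13 on log2(FPKM + 1) to -5.11 without SCZ+c-MSST replicate 3). Of 107 other named genes, 12 of 2672 values under alternatives changed sign. With the 3 tissue scores these were Gabbr2 (-0.035), Snap25 (-0.12), Grin1 (-0.0044), Rasgrf2 (-0.032) and Drd2 (0.061). With the septal score they were Drd2 (1.04) and Ppp1r1b (0.59), and with the striatal score Drd2 (0.14). With the myelin score they were Mbp (0.013), Drd2 (0.73) and Ppp1r1b (0.25), and without SCZ+c-MSST replicate 5 Drd2 (0.0049, the highest of -0.45 to 0.0049 over libraries left out). None of the 24 leading genes changed sign in 600 values. They were picked for a small p in these same libraries, so a change of sign was unlikely from the start. Of the 2672 values, 78 passed the threshold where edgeR's main fit had not, 33 by DESeq2 and 26 by voom. The causes were not tested. Depth limits genes near 3 counts, such as Gabre in SCZ+c-MSST.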

Other observations

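Other neuronal lists had medians of -0.19 to 0.10, beside -0.01 for all tested genes, of which 47.4% were higher. Of 12 upper layer markers 8 were higher, and of 14 deep layer markers 9, both with a median log2 fold change of 0.05, and of 15 interneuron markers 9 (0.10). Calb2, the calcium-binding protein calretinin, stood at 8.38 to 12.0 CPM in SCZ+c-MSST and at 9.10, 16.2, 17.8 and 28.9 CPM in SCZ replicates 1, 2, 3 and 5 (-0.78, SE 0.35), with SCZ replicate 1 at the treated level as for Zic1. Of 16 dopamine and serotonin receptors, 6 were higher (-0.19), as were metabotropic glutamate receptors in 6 of 7 (0.05), neuregulin and ErbB genes in 4 of 9 (-0.04) and perineuronal net genes in 6 of 12 (-0.02).

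Nuclear genes of oxidative phosphorylation were lower in 16 of 20, by little (median -0.04), and proliferation genes in 13 of 15 (-0.21), with none at an unadjusted p under 0.05 by edgeR in either list. Proliferation genes had a median of -0.25 in saline mice, where c-MSST libraries were lower in 14 of 15. Meningeal and fibroblast markers were lower in 12 of 15 (-0.07). Activated microglia and macrophage genes were higher in 10 of 16 (0.11), with Cd14, a receptor for bacterial lipopolysaccharide, at 1.07, 1.71, 2.45 and 1.31 CPM against 0.866, 0.770, 1.07 and 1.02 CPM (0.81, SE 0.34), a narrow gap. Apoptosis regulators were higher in 10 of 14 (0.05).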
